A study of Mus musculus with 30 samples.

Results

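The whole cerebral cortex of mice labelled as carrying an Emx1-Cre deletion of Brap was compared with that of control mice at 10 months of age, in 10 of the 30 libraries of the series. The 6 Emx1-Cre libraries come from mice with both Brap alleles floxed and the Emx1Cre allele (Brapflox/floxEmx1Cre), whose phenotype the labels call recovered. The 4 control libraries come from mice with 1 floxed and 1 wild-type allele and no Cre (Brapflox/wt Cre-), so the groups differ in the number of floxed alleles as well as in Cre. All mice were untreated, and polyA RNA was sequenced. The members were fixed by genotype and age in the labels, and every gene of the table was considered: 17796 of 54418 passed the filter on low counts and were tested. The number of genes called between the groups is given with all 6 Emx1-Cre libraries and again without replicate 6. Many single genes and lists are given in only 1 of these ways.

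Brap encodes a RING-type E3 ubiquitin ligase that holds back signalling from RAS to the MAP kinases by keeping the scaffold KSR from assembling RAF and MEK, and that leaves this inhibition when it binds active RAS. Emx1-Cre acts in the progenitors of the dorsal forebrain, which give rise to the excitatory neurons, the astrocytes and many of the oligodendrocytes of the cortex. Cortical interneurons, microglia and blood vessels arise elsewhere and are sampled in the same RNA. In bulk tissue, fewer cells of a type and less RNA per cell cannot be told apart.

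The promoters of some genes named below are shown first, as reference sequence from RefSeq (GRCm38.p6, 250 bases before to 50 after the transcription start). Slc6a5, Blnk and Trnp1 are 3 of the 4 genes called between the groups; the fourth, Atp2c2, is named only. Nr4a1 is an immediate early gene whose 6 Emx1-Cre libraries all lay below the controls, and Btg2 and Dusp1 are the 2 members of that group whose window holds a cAMP response element. Capitals mark matches, on either strand, to the AP-1 site TGANTCA, the cAMP response element TGACGTCA or the serum response factor site known as the CArG box. No match overlapped another.

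Slc6a5 promoter, chr7:49910049-49910348 (+): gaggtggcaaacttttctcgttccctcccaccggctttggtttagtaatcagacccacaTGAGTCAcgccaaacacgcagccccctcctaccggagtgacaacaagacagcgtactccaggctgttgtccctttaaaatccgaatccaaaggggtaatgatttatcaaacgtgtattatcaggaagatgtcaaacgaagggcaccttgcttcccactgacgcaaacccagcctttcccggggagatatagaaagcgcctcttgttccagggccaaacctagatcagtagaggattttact

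Blnk promoter, chr19:40994172-40994471 (-): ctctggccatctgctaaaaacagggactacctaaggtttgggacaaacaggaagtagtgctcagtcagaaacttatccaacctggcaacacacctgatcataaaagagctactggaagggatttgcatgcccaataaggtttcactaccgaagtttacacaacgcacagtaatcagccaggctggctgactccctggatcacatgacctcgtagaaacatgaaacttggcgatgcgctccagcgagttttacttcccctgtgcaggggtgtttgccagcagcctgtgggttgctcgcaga

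Trnp1 promoter, chr4:133498501-133498800 (-): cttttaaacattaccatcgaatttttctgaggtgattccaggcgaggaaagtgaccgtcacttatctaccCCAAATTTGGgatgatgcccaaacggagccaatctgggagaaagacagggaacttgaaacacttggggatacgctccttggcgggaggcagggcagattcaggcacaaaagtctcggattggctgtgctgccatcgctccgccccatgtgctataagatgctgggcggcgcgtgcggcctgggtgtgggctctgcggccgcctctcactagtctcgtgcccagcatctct

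Nr4a1 promoter, chr15:101266596-101266895 (+): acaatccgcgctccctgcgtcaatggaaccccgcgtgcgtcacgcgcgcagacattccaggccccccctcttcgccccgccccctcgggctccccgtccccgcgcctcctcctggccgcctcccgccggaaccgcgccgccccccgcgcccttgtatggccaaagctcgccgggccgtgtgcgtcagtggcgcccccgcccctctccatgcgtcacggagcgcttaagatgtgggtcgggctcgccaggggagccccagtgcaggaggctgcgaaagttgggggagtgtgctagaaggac

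Btg2 promoter, chr1:134079106-134079405 (-): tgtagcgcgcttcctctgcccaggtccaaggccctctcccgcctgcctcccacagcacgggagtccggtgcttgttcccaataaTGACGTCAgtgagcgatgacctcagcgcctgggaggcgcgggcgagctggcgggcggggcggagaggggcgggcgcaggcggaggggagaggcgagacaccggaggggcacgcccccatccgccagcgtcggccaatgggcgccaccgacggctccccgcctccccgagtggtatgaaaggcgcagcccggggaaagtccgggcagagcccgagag

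Dusp1 promoter, chr17:26508423-26508722 (-): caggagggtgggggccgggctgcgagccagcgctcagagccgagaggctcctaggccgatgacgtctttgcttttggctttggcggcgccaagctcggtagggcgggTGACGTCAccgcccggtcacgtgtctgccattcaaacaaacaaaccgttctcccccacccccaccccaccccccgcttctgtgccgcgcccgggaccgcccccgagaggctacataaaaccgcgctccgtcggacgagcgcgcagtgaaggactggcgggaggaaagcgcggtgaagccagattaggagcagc

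The Slc6a5 window holds an AP-1 match that begins 191 bases before the start, and the Trnp1 window a CArG box that begins 180 bases before it. The cAMP response elements of Btg2 and Dusp1 begin 166 and 143 bases before the start. Of all 32851 windows of this length, 7.81% hold the AP-1 match, 1.79% the cAMP response element and 1.63% the CArG box. No match was found in the windows of Blnk and Nr4a1. Of the 21 immediate early genes, 17 had a window, and 2 of these held the cAMP response element, against 549 of the 27025 genes in the table (2.03%). The AP-1 match was in 1 of the 17, against 8.97% of the 27025, and the CArG box in 1, against 1.81%. A match is a description of the letters and not evidence of binding.

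Depth was even, from 23303951 to 27507791 estimated counts per library in the 10 libraries. Replicate 6 of the Emx1-Cre group stood apart from the other 5 in its values. On the first principal component of the 10 libraries (20.7% of the variance) it lay at -24.5, inside the range of the controls (-25.9 to -20.9), and the other 5 lay at 2.44 to 66.8. Its depth (24787000 counts) and mitochondrial share (6.88%) were inside the range of the other libraries. Replicate 2 of Emx1-Cre lay farthest out, at 66.8. From the counts of Xist and Y-linked genes, 1 of the 4 controls and 2 of the 6 Emx1-Cre mice were female. Defining markers of cortical cells were present in both groups: the summed CPM (counts scaled to a common library size) of 14 pan-excitatory neuron markers ran from 7674 to 8452 in controls and from 7488 to 9094 in Emx1-Cre libraries.

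Brap mRNA, the targeted transcript, did not fall in the Emx1-Cre group. It stood at 63.4, 60.7, 56.6 and 59.2 CPM in the controls, at 87.1, 89.6, 69.9, 84.7 and 80.5 CPM in replicates 1 to 5, and at 63.0 CPM in replicate 6. Replicates 1 to 5 were above every control and replicate 6 lay among them. The log2 fold change was 0.40 ± 0.12 (SE, adjusted p = 0.251) with 6 libraries and 0.46 ± 0.12 (adjusted p = 0.0510) without replicate 6, in edgeR (quasi-likelihood F test, Benjamini-Hochberg adjusted p over the genes tested). An exact two-sided permutation test over the 10 libraries, for Brap alone, gave p = 0.0143, where the smallest p the design allows is 0.00476. With all 6 libraries Brap passed in limma voom (adjusted p = 0.00754) but not in DESeq2 (adjusted p = 0.104). In edgeR fits of the compared libraries alone, it passed without replicate 6 (adjusted p = 0.0162) and not with it (adjusted p = 0.190). At 3 months edgeR called it higher, at 0.64 ± 0.12 (adjusted p = 0.000217). The counts are summed over the whole gene, and which exons are floxed was not given in the sources used here. They therefore do not check the deletion. For this reason the groups are called by their labels throughout. Emx1, the gene that drives the Cre, did not pass the test, with a log2 fold change of -0.04 ± 0.21 (adjusted p = 0.970).

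Genes near the 2 engineered loci were counted because alleles linked to them can differ between groups. Of 42 tested genes that start within 1 Mb of Brap, edgeR called 0 (6 at an unadjusted p under 0.05; 0 by DESeq2 and 4 by limma voom). Of 29 near Emx1 it called 0 (4 at an unadjusted p under 0.05; 0 by DESeq2 and 3 by limma voom). Over all genes tested, an unadjusted p under 0.05 was found for 5.48% in the higher and 4.71% in the lower direction. DESeq2 called 0.568% of all genes and limma voom 5.63%. Without replicate 6, 1 of the 29 was called by edgeR, against 0.934% of all genes. It was Rab11fip5, which encodes a RAB11 effector of endosome recycling, at 0.49 ± 0.12 (adjusted p = 0.0498).

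With all 6 libraries, 4 genes were called higher in the Emx1-Cre group and 0 lower, at an adjusted p under 0.05, which is 0.0225% of the genes tested. They were Blnk, Trnp1, Atp2c2 and Slc6a5. At an unadjusted p under 0.05 there were 975 higher and 838 lower genes (5.48% and 4.71%), DESeq2 called 69 higher and 32 lower (0.388% and 0.18%, 0.568% in all), and limma voom with quality weights, which gives a deviating library less weight, called 498 and 504 (2.8% and 2.83%, 5.63% in all). A fit of the 10 libraries alone called 0 genes, with 0.190 to 0.192 as the adjusted p of the 4. In 253 genes (1.42%) all 6 Emx1-Cre libraries were above all 4 controls, and in 276 (1.55%) all 6 were below.

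Blnk encodes an adaptor of B-cell receptor signalling that microglia also express (chr19:40928927-40994535, minus strand, GENCODE M21 on GRCm38). It stood at 6.34, 8.30, 6.02 and 7.21 CPM in controls, at 27.7, 25.4, 23.8, 38.3 and 22.4 CPM in Emx1-Cre replicates 1 to 5 and at 10.2 CPM in replicate 6. All 6 were above every control, with replicate 6 the closest to them. It was higher by 1.82 ± 0.26 on the log2 scale (adjusted p = 0.00195). The summed CPM of 18 homeostatic microglia markers ran from 754 to 893 in controls and from 598 to 1040 in Emx1-Cre libraries, and its part in the result was not tested.

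Trnp1 encodes a nuclear protein known from the control of radial glia and cortical folding (chr4:133491100-133498550, minus strand). The controls held 86.5, 99.8, 96.9 and 104 CPM and Emx1-Cre replicates 1 to 5 held 289, 164, 165, 267 and 205 CPM. Replicate 6 held 110 CPM, just above the highest control. The log2 fold change was 1.05 ± 0.19 (adjusted p = 0.0315).

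Atp2c2 encodes a calcium and manganese pump of the secretory pathway (chr8:119700009-119757717, plus strand). Its level was 0.325, 0.498, 0.698 and 0.631 CPM in controls and 3.04, 6.53, 4.92, 5.02 and 2.99 CPM in Emx1-Cre replicates 1 to 5. Replicate 6, at 0.560 CPM, lay inside the control range. The log2 fold change was 2.82 ± 0.44 (adjusted p = 0.00519).

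Slc6a5 encodes the neuronal glycine transporter GlyT2, a marker of glycinergic neurons of the brainstem and spinal cord (chr7:49910146-49963856, plus strand). The 4 controls held 0, 0, 2 and 1 reads. Emx1-Cre replicates 1 to 5 held 3391, 205, 292, 3119 and 482 reads and replicate 6 held 1. At 139, 8.48, 12.2, 116 and 21.2 CPM, replicates 1 to 5 were all above the controls with replicates 1 and 4 the highest. Between the groups, the ratio of Slc6a5 reads per scaled library size was 1718 (95% counting interval 588 to 8333). The interval covers counting error only and not the spread between mice. The fitted log2 fold change of 10.48 ± 1.81 (adjusted p = 0.0277) depends on how near-zero controls are handled.

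The calls of Slc6a5 and Trnp1 were lost without a filter on low counts, where 2 genes were called. That of Slc6a5 was also lost in limma voom (adjusted p = 0.314), which called the other 3. Both calls were lost as well when any 1 control was left out, and that of Trnp1 without Emx1-Cre replicate 1, 4 or 5, where 3 genes were called. In all, 1 gene remained called without control replicate 1 or 2 (Blnk) and 2 without replicate 3 or 4 (Atp2c2 and Blnk). All 4 genes were also called higher at 3 months, in libraries not shared with this comparison. Blnk ranged from 20.7 to 36.5 CPM in the 6 Emx1-Cre libraries of 3 months against 7.35 to 8.86 CPM in the 4 controls of that age. Slc6a5 ranged from 2.94 to 26.6 CPM there against 0 to 0.164 CPM.

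**Figure D1:**
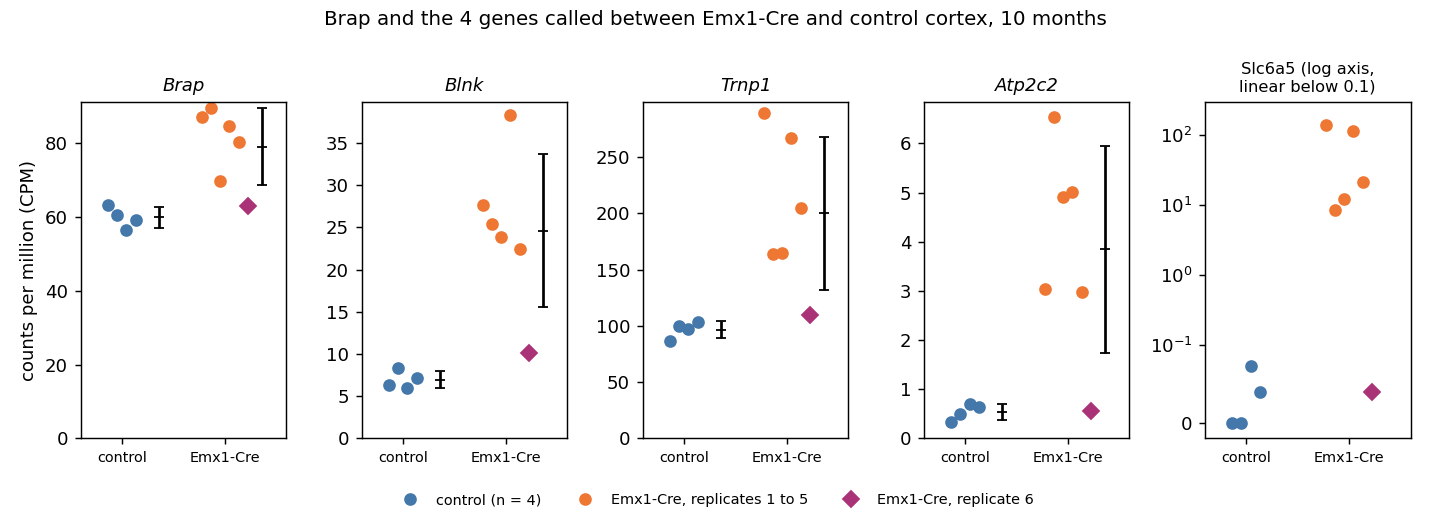
CPM per library for Brap and the 4 genes called at 10 months, with the mean and SD (n = 4 and n = 6) as black bars except for Slc6a5, whose axis is logarithmic above 0.1 CPM. Replicate 6 lies at 63.0 CPM for Brap and 0.560 CPM for Atp2c2, inside the control range, and at 10.2 CPM for Blnk and 110 CPM for Trnp1, just above it.

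Leaving out replicate 6 raised the number of genes called from 4 to 166, of which 86 were higher and 80 lower (0.934% of 17765 genes tested, 0.484% and 0.45% by direction). Each other Emx1-Cre library, when left out in its place, gave 3 to 5 genes. Because replicate 6 was set aside for its values, the p-values of this fit are smaller than they should be and are given as a description. The 4 genes called with all 6 libraries were called here too. Blnk was at 1.98 ± 0.22 and Atp2c2 at 3.05 ± 0.34 (adjusted p = 5.81e-06 for each). Trnp1 was at 1.17 ± 0.17 and Slc6a5 at 10.74 ± 1.47 (adjusted p = 0.000416 for each). The fit of the 9 libraries alone called 331 higher and 315 lower genes (3.93%, or 2.02% and 1.92% by direction). All 5 remaining libraries were above all controls in 1046 genes (5.88%) and below in 949 (5.33%). Leaving out 1 further library gave 57 to 177 calls, of which 56 to 143 were among the 166 genes. The counts of all calls were 66, 57, 77 and 73 without control replicates 1 to 4, and 97 and 95 without Emx1-Cre replicates 1 and 4.

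**Figure D2:**
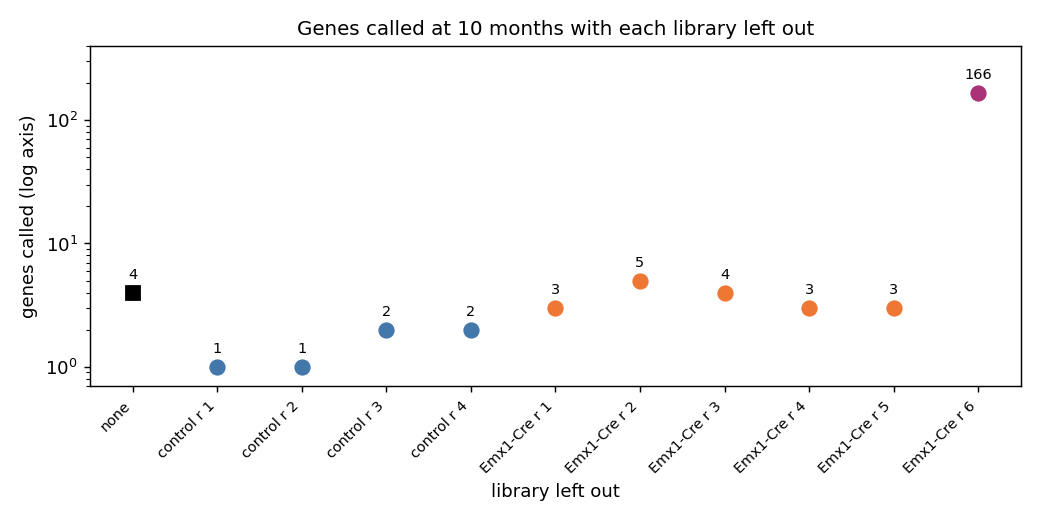
Number of genes called between Emx1-Cre and control at 10 months (log axis) with no library left out and with each of the 10 libraries left out in turn. The counts run from 1 to 5 except without Emx1-Cre replicate 6, where 166 genes were called.

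In the 166 genes, replicate 6 was at the level of the controls. It was nearer to the control mean than to the mean of the other 5 in 161 of them, inside the control range in 109 and beyond that range on the side away from the other 5 in 19. On a scale where 0 is the control mean and 1 the mean of the other 5, its median position was 0.049 (quartiles -0.080 and 0.170). These genes were chosen without replicate 6 and with the other 5 high or low, so the position was also read in genes chosen at 3 months, in other libraries. Over the 3628 genes called higher there, the median log2 CPM difference from the 10-month control mean was -0.024 in replicate 6, between -0.035 and 0.018 in single controls and between 0.057 and 0.260 in Emx1-Cre replicates 1 to 5. Over the 3396 genes called lower there, it was 0.033 in replicate 6, between -0.016 and 0.051 in controls and between -0.292 and -0.071 in replicates 1 to 5. The genotype of this mouse was not tested here.

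The 10 greatest rises without replicate 6, among called genes averaging 1 CPM or more, were Slc6a5, Acaa1b, Rtl1, Gm35853, Atp2c2, Lhx3, Mybpc1, Jaml, Blnk and Gpnmb. Rtl1, a paternally expressed gene derived from a retrotransposon, stood at 0.610, 0.498, 0.184 and 0.670 CPM in controls and at 12.7, 2.48, 2.29, 10.2 and 2.19 CPM in Emx1-Cre replicates 1 to 5. As for Slc6a5, replicates 1 and 4 were the highest. It rose by 3.60 ± 0.62 on the log2 scale (adjusted p = 0.00294), and replicate 6 held 0.921 CPM. MicroRNA genes are annotated across it on both strands, and whether the counting used strand was not given in the sources used here.

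Gpnmb, a glycoprotein of phagocytes rich in lysosomes, stood at 3.90, 1.70, 4.00 and 2.76 CPM in controls and at 18.1, 13.3, 7.50, 11.9 and 9.13 CPM in Emx1-Cre replicates 1 to 5. All 5 were above the controls and replicate 6, at 2.96 CPM, was among them, with a log2 fold change of 1.95 ± 0.43 (adjusted p = 0.0227). Jaml, an adhesion molecule of leukocytes, was at 2.01 ± 0.45 (adjusted p = 0.0234), and did not pass in the fit of the 9 libraries alone (adjusted p = 0.0505). Lhx3, a LIM homeobox factor of motor neurons and the pituitary, rose by 2.99 ± 0.63 (adjusted p = 0.0160) from 0.158 to 0.332 CPM in controls. Mybpc1, a myosin-binding protein of slow muscle, rose by 2.47 ± 0.57 (adjusted p = 0.0291). Acaa1b, a thiolase of peroxisomal fatty acid oxidation, rose by 3.71 ± 0.61 (adjusted p = 0.00196), but 50.1% of its 31-base words also occur in transcripts of other genes, so its reads are uncertain. Gm35853, at 3.15 ± 0.59 (adjusted p = 0.00581), is annotated as antisense and overlaps Krt80 on the other strand.

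The 10 greatest falls were Gm765, Gm26684, C730002L08Rik, Htr5b, Mycbpap, Trabd2b, Sptssb, Zfp184, Cd34 and Proser2. Gm765, a predicted protein-coding gene, fell farthest. It stood at 2.11, 5.85, 12.8 and 8.55 CPM in controls and at 0, 0.455, 0.375, 0.0372 and 0.219 CPM in Emx1-Cre replicates 1 to 5, a log2 fold change of -5.06 ± 0.55 (adjusted p = 5.81e-06). Replicate 6 held 7.16 CPM, inside the control range.

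Cd34, a sialomucin of endothelium and blood progenitors, stood at 75.7, 62.7, 56.8 and 67.4 CPM in controls, at 26.7, 25.7, 28.0, 26.5 and 30.7 CPM in Emx1-Cre replicates 1 to 5 and at 58.1 CPM in replicate 6. The 5 values ran from 25.7 to 30.7 CPM, below every control, a log2 fold change of -1.25 ± 0.16 (adjusted p = 0.000110). The summed CPM of 19 endothelial markers ran from 453 to 578 in controls and from 308 to 520 in Emx1-Cre libraries, with 0 members called by edgeR (2 lower at an unadjusted p under 0.05, 0 by DESeq2 and 1 lower by limma voom), and its part in the fall of Cd34 was not tested.

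Htr5b, which encodes a serotonin receptor, fell by 1.49 on the log2 scale (SE 0.32, adjusted p = 0.0167). It was the 1 gene of these 10 whose 6 Emx1-Cre libraries were all below the controls, at 0.483 to 1.08 CPM against 1.26 to 2.06 CPM. Trabd2b, a membrane protease that inactivates Wnt proteins, was at -1.42 ± 0.21 (adjusted p = 0.000548). Sptssb, a small subunit of serine palmitoyltransferase, was at -1.40 ± 0.32 (adjusted p = 0.0270). The zinc finger gene Zfp184 was at -1.26 ± 0.30 (adjusted p = 0.0365).

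**Figure D3:**
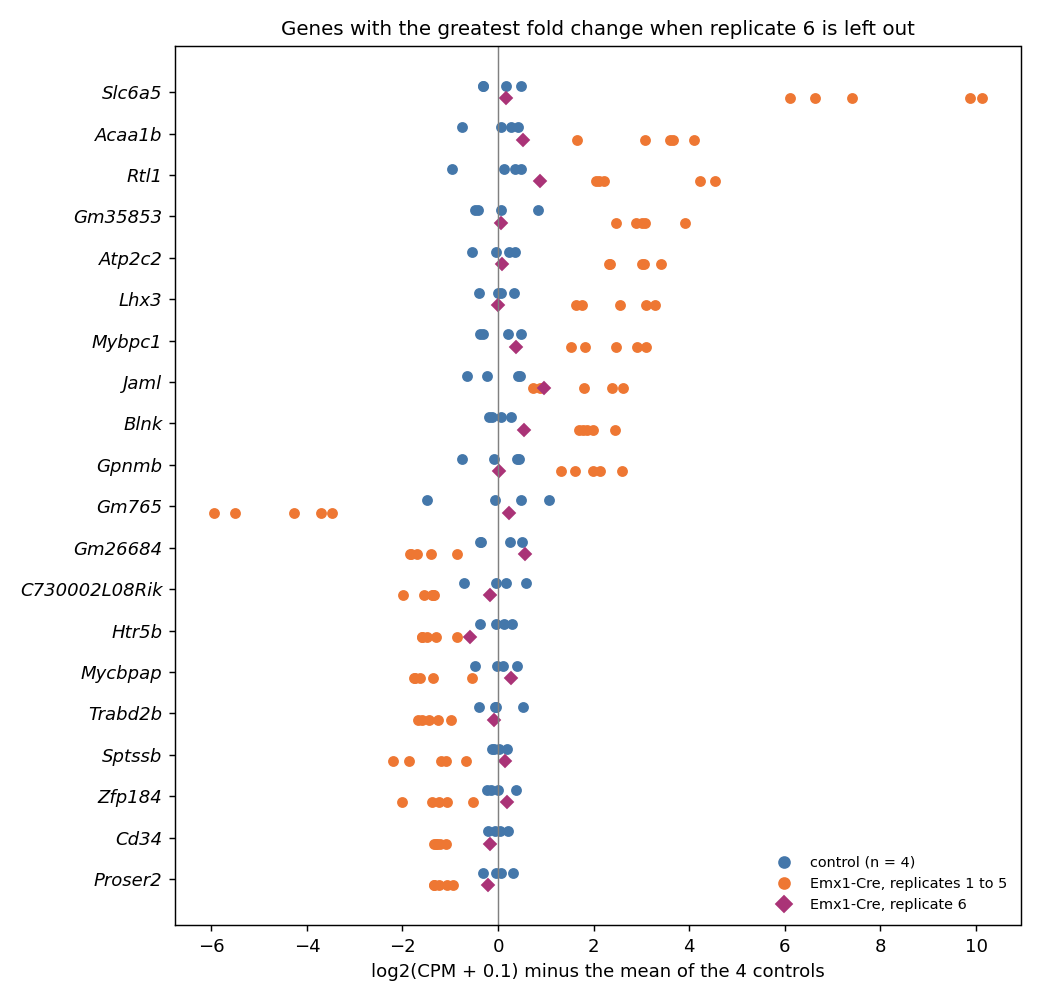
log2(CPM + 0.1) of each of the 10 libraries minus the mean of the 4 controls, for the 20 genes with the greatest fold changes without replicate 6. Replicates 1 to 5 lie away from 0 on the side that chose the gene, and replicate 6 lies near the controls in most rows, with Htr5b and Rtl1 among those where it is outside their range.

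The change at 10 months was set beside that at 3 months, an earlier age whose control and Emx1-Cre mice are not shared with it. At 3 months 3628 genes were called higher and 3396 lower (39.5% of the genes tested, 20.4% and 19.1% by direction). Of the 166 genes called at 10 months without replicate 6, 143 were called in the same direction at 3 months, which is 86.1% of the 166 and 2.04% of the 7024. Of the rest, 22 were not called at 3 months and 1, Il17ra, a receptor subunit for interleukin 17, was called in the opposite direction. Il17ra stood at 17.0 to 21.5 CPM in controls, at 10.2, 11.3, 9.50, 9.07 and 9.88 CPM in Emx1-Cre replicates 1 to 5 and at 18.8 CPM in replicate 6. Its log2 fold change was -0.95 ± 0.20 at 10 months without replicate 6 and 0.59 ± 0.22 at 3 months. With all 6 libraries it was -0.75 at 10 months, and the change between ages in that fit, of -1.34, passed the edgeR test (adjusted p = 0.0155). Trabd2b, among the 10 greatest falls, was not called at 3 months (-0.27 ± 0.25, adjusted p = 0.397), and its change between ages did not pass the test (adjusted p = 0.137).

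The effect itself was smaller at 10 months. With all libraries, the change in the Emx1-Cre effect between ages was called in 1042 genes (5.86%), 409 of them higher at 10 months and 633 lower (2.3% and 3.56%). Of the 3628 genes higher at 3 months, 627 had a called decrease in effect and 0 a called increase; of the 3396 lower genes, 400 had a called decrease and 0 an increase. The median log2 fold change of the first set went from 0.70 to 0.12 and that of the second from -0.68 to -0.14. Because these genes were chosen for their size at 3 months, part of such a drop comes from the choice. The 10-month values, and the drops given for lists below, also include replicate 6, which lay at control level in these genes. In Emx1-Cre replicates 1 to 5, the median differences from the control mean were 0.057 to 0.260 and -0.292 to -0.071. Without replicate 6 the change between ages was called in 595 genes, 187 higher at 10 months and 408 lower. Leaving out any 1 control of either age gave 306 to 550 genes, leaving out Emx1-Cre replicate 1 or 5 of 3 months 576 or 643, replicate 3, 4, 5 or 6 of 10 months 538, 653, 565 or 595, and replicate 6 of 3 months 3534.

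The lists of markers and pathways, described next, held 743 distinct genes tested, of which edgeR called 0 with all 6 libraries. At an unadjusted p under 0.05 there were 48 higher and 53 lower, DESeq2 called 8 and 4, and limma voom 29 and 33. Without replicate 6, 9 were called higher and 4 lower, against 0.934% of all genes, and unadjusted p-values under 0.05 were found for 7.46% of all genes in the higher and 6.88% in the lower direction. Lists are described by counts and medians, beside a median log2 fold change of -0.00 over all genes.

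Immediate early genes, which neurons switch on within minutes of activity through RAS-MAPK and calcium signalling, included members that separated the groups in all 6 libraries. The mean log2 CPM was 5.53 to 5.88 in controls, 4.11 to 5.19 in Emx1-Cre replicates 1 to 5 and 5.17 in replicate 6, below every control. In 8 of 21 members all 6 Emx1-Cre libraries were below all controls, against 1.55% of all genes and the highest such number among the 46 lists. The median log2 fold change was -0.79. Still, 0 of 21 were called by edgeR or DESeq2 with all libraries or by edgeR without replicate 6 (9 lower at an unadjusted p under 0.05, and 9 called lower by limma voom), and the fit of the 9 libraries alone called 7 lower.

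Nr4a1, an orphan nuclear receptor gene, stood at 169, 139, 103 and 158 CPM in controls, at 52.0, 58.1, 26.8, 31.0 and 26.4 CPM in Emx1-Cre replicates 1 to 5 and at 66.3 CPM in replicate 6. The groups did not overlap, with a log2 fold change of -1.71 ± 0.46 (adjusted p = 0.201). Egr1, a zinc finger factor, ran from 321 to 377 CPM in controls, against 94.0 to 246 CPM in the 6 Emx1-Cre libraries, at -1.17 ± 0.41 (adjusted p = 0.320). Arc, which acts at synapses in the removal of AMPA receptors, stood at 452, 431, 195 and 339 CPM against 168, 60.7, 47.3, 73.5 and 63.1 CPM, with 199 CPM in replicate 6. Here replicate 6 overlapped the lowest control, and the fold change was -1.79 ± 0.53 (adjusted p = 0.265). Fos ran from 40.4 to 56.1 CPM in controls and from 4.46 to 22.3 CPM in Emx1-Cre libraries. Btg2 and Dusp1, whose promoters are shown above for their cAMP response elements, did not separate the groups, because Emx1-Cre replicate 2 held 28.7 CPM of Btg2 and 39.3 CPM of Dusp1, inside the control ranges. Bdnf, a neurotrophin gene, was another of the members that did not separate the groups. It was at 131 and 94.0 CPM in replicates 1 and 4 and 22.3 to 29.8 CPM in the other 4, against 30.2 to 37.0 CPM in controls. Bdnf, Jun and Ier5 had log2 fold changes above 0, at 0.72, 0.28 and 0.05, and did not pass. At 3 months edgeR called 8 members of this list lower and 2 higher, so the members differed between ages. Fos, Ier2 and Junb, below all controls in all 6 libraries here, were not called at 3 months (adjusted p = 0.337, 0.418 and 0.809). Klf4 went from 1.06 at 3 months to -0.77, a change that passed (adjusted p = 0.0305). The members Fos, Ier2, Junb, Klf4, Jun, Ier5, Bdnf, Btg2 and Dusp1 were chosen after their values were seen.

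The RAS-MAPK genes were followed because Brap acts on that pathway. Among 18 feedback and target genes, whose transcripts follow ERK activity, 0 were called by edgeR. At an unadjusted p under 0.05, 6 were lower, against 4.71% of all genes. In all 6 libraries, 3 were below all controls, against 1.55% of all genes. DESeq2 called 0 and limma voom 6 lower. Their mean log2 CPM was 4.47 to 4.66 in controls, 3.75 to 4.46 in Emx1-Cre replicates 1 to 5 and 4.44 in replicate 6, and the median log2 fold change was -0.35. This list holds Egr1, 1 of the 3 members below all controls in all 6 libraries, and other immediate early genes as well. Etv4, an ETS factor, stood at 7.28 to 9.55 CPM in controls, and between 2.44 and 6.92 CPM in the 6 Emx1-Cre libraries (-0.74 ± 0.26, adjusted p = 0.314), and Etv1, its relative, at 91.4 to 114 CPM against 55.4 to 92.5 CPM (-0.54 ± 0.17, adjusted p = 0.285). Among 20 components of the cascade itself, edgeR called 0, with a median of 0.10. At an unadjusted p under 0.05, 3 were higher, against 5.48% of all genes, and DESeq2 called 0 and limma voom 3. The mean log2 CPM of the 20 was 6.65 to 6.73 in the 6 Emx1-Cre libraries, above every control (6.61 to 6.63). Araf, a RAF kinase gene, was at 0.24 ± 0.08 (adjusted p = 0.307).

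Without replicate 6, 3 of 14 ubiquitin genes and deubiquitinases were called higher and 0 lower, against 0.484% and 0.45% of all genes. Values are given for Ubb and Uchl1. Ubb, which encodes polyubiquitin, rose by 0.61 ± 0.11 (adjusted p = 0.00491), with 50.3% of its 31-base words shared with other transcripts and so with uncertain reads. Uchl1, a neuronal deubiquitinase, rose by 0.58 ± 0.13 (adjusted p = 0.0270), and an antisense gene overlaps it. In the fit of the 9 libraries alone it did not pass (adjusted p = 0.0509), and Emx1-Cre replicate 2, at 464 CPM, lay below the highest control, at 470 CPM. With all 6 libraries edgeR called 0 of the 14, DESeq2 2 and limma voom 3 higher. In that edgeR fit Ubb was at 0.52 ± 0.13 (adjusted p = 0.152) and Uchl1 at 0.51 ± 0.14 (adjusted p = 0.211). Among 31 proteasome subunits edgeR called 0 with or without replicate 6. With all 6 libraries, 9 were higher at an unadjusted p under 0.05, against 5.48% of all genes. DESeq2 called 0 of the subunits, and limma voom called 4 higher, against 2.8% of all genes. Without replicate 6, 19 were higher at an unadjusted p under 0.05, against 7.46% of all genes. In 20 subunits all 5 libraries were above all controls, against 5.88% of all genes. The fit of the 9 libraries alone called 6 of the 31 higher, against 2.02% of all genes. Psmc4 ran from 65.5 to 68.7 CPM in controls, against 69.2 to 89.1 CPM in the 6 Emx1-Cre libraries (0.25 ± 0.09 with all 6, adjusted p = 0.341).

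Neuron markers moved in both directions without replicate 6. Lamp5 and Rspo1, 2 of 14 upper-layer excitatory neuron markers, fell, and no other member was called. At an unadjusted p under 0.05, 2 of the 14 were higher and 6 lower. Lamp5 stood at 123, 155, 122 and 162 CPM in controls and at 51.7, 68.9, 79.8, 57.2 and 90.1 CPM in Emx1-Cre replicates 1 to 5, with 123 CPM in replicate 6, a log2 fold change of -1.01 ± 0.17 (adjusted p = 0.00219). Rims1, an active zone organiser and 1 of 34 synaptic genes, was at -0.71 ± 0.16 (adjusted p = 0.0234). It was the 1 synaptic gene called, and the list did not fall with it. At an unadjusted p under 0.05, 7 of the 34 were higher and 2 lower, with a median log2 fold change of 0.06. Nptx1, a secreted pentraxin of excitatory synapses, rose by 0.80 ± 0.15 (adjusted p = 0.00427) from 326 to 432 CPM in controls to 607 to 729 CPM.

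Npy, a neuropeptide of interneurons, rose by 1.49 ± 0.36 (adjusted p = 0.0389). It stood at 35.4, 55.7, 54.1 and 58.6 CPM in controls, at 262, 71.2, 91.2, 202 and 86.3 CPM in Emx1-Cre replicates 1 to 5 and at 52.4 CPM in replicate 6. Replicates 1 and 4 were again the highest, and in the fit of the 9 libraries alone Npy did not pass (adjusted p = 0.0878). The summed CPM of 21 interneuron markers was 1556 to 1739 in controls and 1780 to 2610 in the 6 Emx1-Cre libraries, without overlap. By mean log2 CPM, controls were at 5.089 to 5.325 and replicates 1 to 5 at 5.336 to 5.615. Replicate 6, at 5.321, lay among the controls by that measure. With all 6 libraries edgeR called 0 of the 21 (6 higher at an unadjusted p under 0.05), DESeq2 1 and limma voom 5 higher. In 2 members all 6 libraries were above all controls, against 1.42% of all genes. Gad2, a GABA-synthesising enzyme, was at 219 to 266 CPM in controls, against 280 to 479 CPM in all 6 (0.61 ± 0.21, adjusted p = 0.309).

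Glial and immune lists, which rose at 3 months, showed few calls at 10 months. Of 27 reactive astrocyte markers 25 rose at 3 months, 0 were called at 10 months by edgeR with all libraries (1 higher at an unadjusted p under 0.05), 1 was called higher by DESeq2 and 1 by limma voom, 1 was called by edgeR without replicate 6, and in 19 the drop between ages was called. Gfap, the astrocyte filament gene, stood at 222 to 242 CPM in controls, at 665, 296, 298, 309 and 495 CPM in Emx1-Cre replicates 1 to 5 and at 184 CPM in replicate 6. Replicates 1 to 5 were above every control and replicate 6 below. Its log2 fold change was 0.69 ± 0.38 at 10 months (adjusted p = 0.556) and 3.47 ± 0.44 at 3 months, and the difference of -2.78 ± 0.54 passed (adjusted p = 0.00818). Aspg, an asparaginase, was the 1 member called by edgeR without replicate 6, at 1.25 ± 0.26 (adjusted p = 0.0143), and it also passed with all 6 libraries in DESeq2 (adjusted p = 0.0213) and limma voom (adjusted p = 0.0182).

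Of 26 markers of disease-associated microglia 22 rose at 3 months, 0 were called at 10 months by edgeR (2 higher at an unadjusted p under 0.05, and DESeq2 and limma voom called 1 each) and 10 had a called drop. Their mean log2 CPM was 3.03 to 3.39 in controls, 3.44 to 3.72 in Emx1-Cre replicates 1 to 5 and 3.06 in replicate 6. Gpnmb was the 1 member called without replicate 6, and its change between ages did not pass (adjusted p = 0.0937). Of 39 interferon-stimulated genes 32 rose at 3 months and 0 were called at 10 months (0 at an unadjusted p under 0.05, 0 by DESeq2 and 0 by limma voom), with a median of 0.10 against 2.68 at 3 months. A called drop was found in 3 of them. At 3 months the mean log2 CPM of this list was uneven. It was 5.81 in Emx1-Cre replicate 1, 1.15 to 2.77 in replicates 2 to 6 and 0.504 to 1.23 in controls, so the rise was largest in 1 library. Of 14 complement genes 10 rose at 3 months, 0 were called at 10 months by edgeR, DESeq2 or limma voom (0 at an unadjusted p under 0.05), and 8 had a called drop. C4b, for example, was at 139 to 179 CPM in the 6 Emx1-Cre libraries and 89.1 to 151 CPM in controls. At 3 months it was at 130 to 288 CPM in Emx1-Cre libraries and 22.5 to 54.6 CPM in controls. The controls were thus higher at 10 months, and the drop in effect is not a fall of the Emx1-Cre libraries alone. Of the 31-base words of C4b, 48.3% are shared with other transcripts.

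Myelin and astrocyte genes were low in some libraries. Of 20 myelin and oligodendrocyte genes 0 were called (4 lower at an unadjusted p under 0.05, 0 by DESeq2 and 2 by limma voom), with a median of -0.44. Their mean log2 CPM was 5.97 to 6.38 in controls. It was 5.05 in Emx1-Cre replicate 2, 5.81 to 5.95 in replicates 1, 3, 4 and 5 and 6.10 in replicate 6. Replicates 1 to 5 were thus below every control and replicate 6 was among them. In 5 of the 20 members replicates 1 to 5 were all below all controls, against 5.33% of all genes. Slco1c1, a thyroid hormone transporter listed among 18 homeostatic astrocyte markers, was called lower without replicate 6, at -0.96 ± 0.20 (adjusted p = 0.0164). It was the 1 member called, and the median of the 18 in that fit was -0.17.

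**Figure D4:**
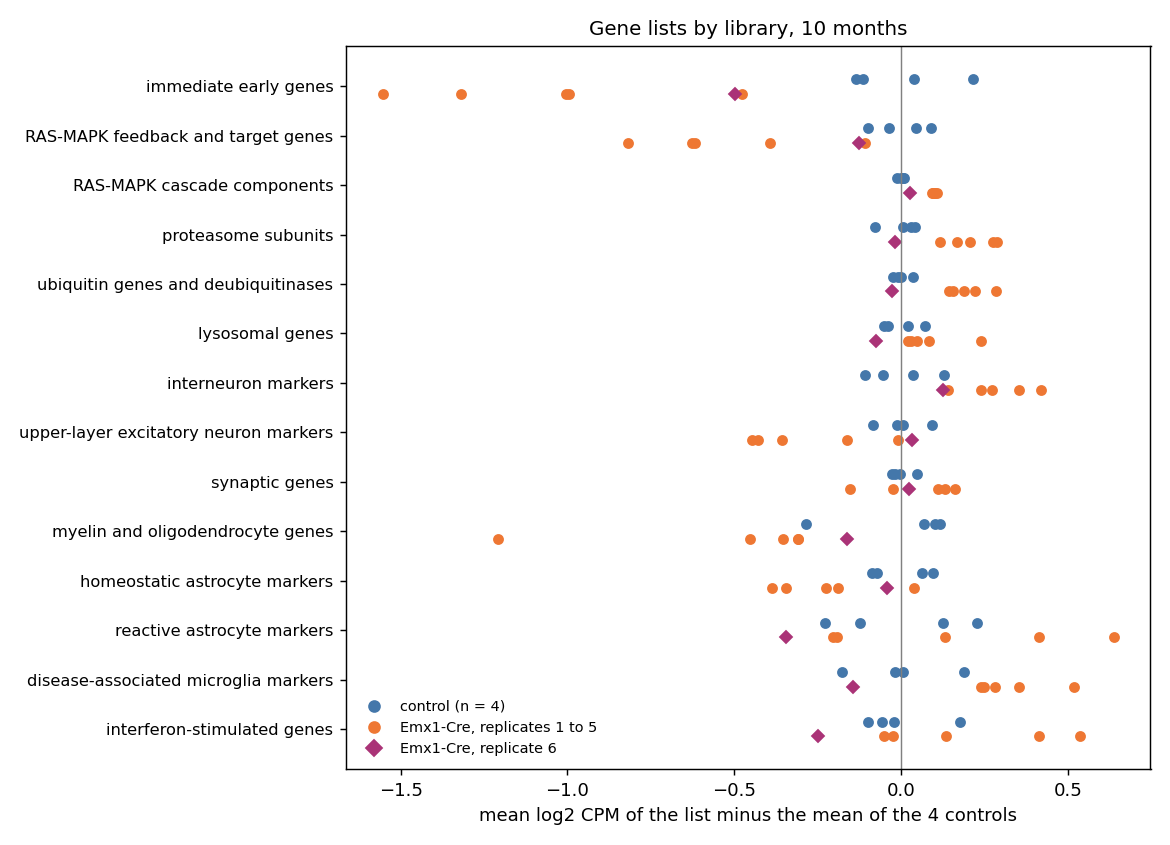
Mean log2 CPM of each of 14 gene lists in each of the 10 libraries, minus the mean of the 4 controls. For immediate early genes all 6 Emx1-Cre libraries, replicate 6 included, are to the left of the controls, while for proteasome subunits and disease-associated microglia markers replicates 1 to 5 are to their right and replicate 6 is among them.

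**Figure D5:**
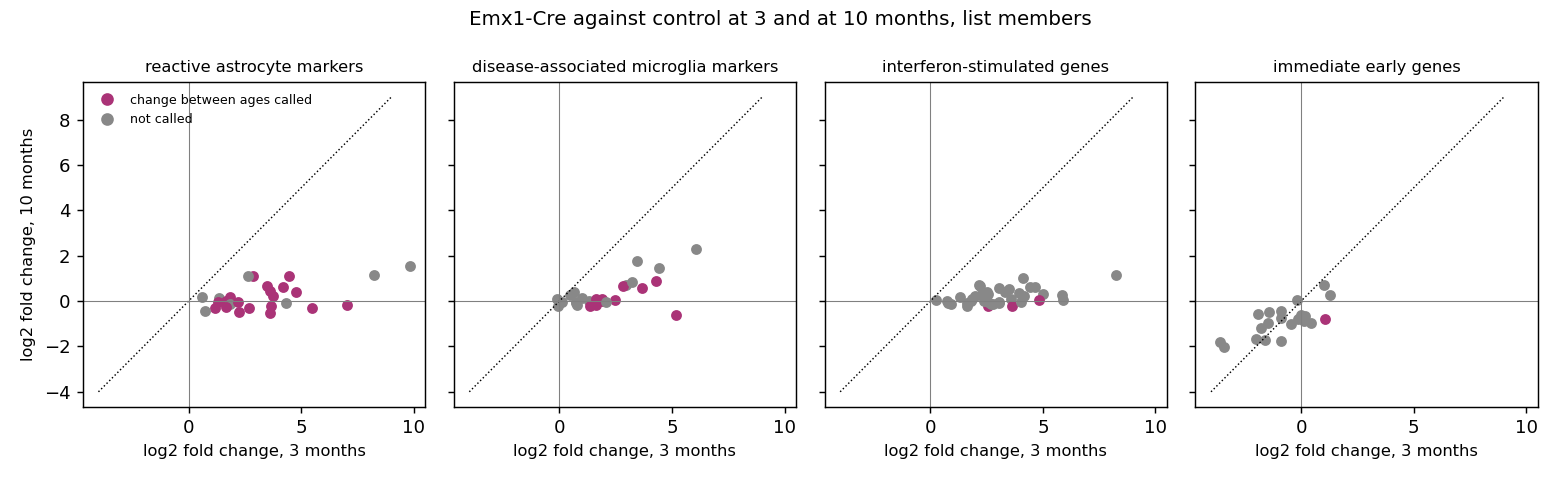
log2 fold change of Emx1-Cre against control at 10 months (all 6 libraries) against that at 3 months, for the members of 4 lists, with coloured points where the change between ages was called and a dotted line of equal effect. Reactive astrocyte, disease-associated microglia and interferon-stimulated genes lie near 0 at 10 months, with medians of 0.03, 0.08 and 0.10. Immediate early genes have a median of -0.79 at 10 months and -0.88 at 3 months, but single members differ between the ages.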

How the data were processed

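Polyadenylated RNA of whole cerebral cortex was sequenced, per the labels' protocols. The authors deposited 1 table of estimated counts per gene, made with Salmon 1.5.2 on GRCm38 per the submitters' processing notes; the annotation release and strand setting were not given in the sources used here. Gene IDs numbered 54418, and 53379 of them matched GENCODE M21 with the same version. Estimated counts were rounded, and 14.7 to 23.7% of the 10-month values were not whole. Genes were kept by filterByExpr (minimum count 10, total 15). edgeR 4.0.16 was fitted to all 30 libraries with TMM scaling, 1 coefficient per group and a robust quasi-likelihood test, and genes were called at a Benjamini-Hochberg adjusted p under 0.05. DESeq2 1.42.0 and limma 3.58.1 were alternatives. CPM values are TMM-scaled. Among the 45 pairs of the 10 libraries none was a duplicate. The labels number mice as biological replicates. The fit was tested on simulated data.

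Members and gene lists were chosen with earlier results of these data known. Named genes are Brap, Emx1, called neighbours within 1 Mb, the 10 greatest fold changes in each direction averaging 1 CPM or more, and per list the 3 members of smallest p; Xist and Y-linked genes are not named, and 2 other genes that the rule names are not reported here. Genes with at least 50% of their 31-base words in other genes' transcripts are called uncertain. Promoters were matched by symbol.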

Additional observations from a re-analysis of the deposited data

Results flagged for a closer look

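In groups of 4 or 6 libraries, a library was singled out when its gap to the nearest other was too large a share of the group's range, which chance gives in about 1 in 20 groups. Of 144 groups examined (72 named genes in 2 groups), 13 were singled out, 12 of them in Emx1-Cre libraries.

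In 10 of these the library was Emx1-Cre replicate 6. It was high for 6 genes that were low in the other 5 libraries: Gm765 at 7.16 CPM, Gm26684 at 2.16 CPM, C730002L08Rik at 4.28 CPM, Trabd2b at 9.61 CPM, Cd34 at 58.1 CPM and Proser2 at 2.72 CPM. It was low for Ubb at 972 CPM, Psma4 at 52.2 CPM, Nptx1 at 371 CPM and the neuropeptide gene Tac2 at 5.64 CPM. Many of these genes were named because the other 5 libraries differed from the controls, so these gaps are partly set by that choice.

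Replicate 2 of Emx1-Cre was singled out for the reactive astrocyte gene Cd109, high at 18.6 CPM against 1.72 to 4.72 CPM in the others, and for the myelin gene Mag, low at 45.6 CPM against 103 to 124 CPM. Control replicate 3 was high for the interferon-stimulated gene Ifi27l2a, at 0.734 CPM.

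The Emx1-Cre effect differed between ages, by edgeR's test of the difference, for the 8 genes given here. At 10 months minus 3 months it was -1.76 on the log2 scale for Aspg, -3.35 for Cd109, -2.78 for Gfap, -3.55 for C3 and -2.08 for C4b. It was 1.01 for Rims1, 0.63 for the synaptic gene Cplx2 and 1.00 for Rspo1, all 3 of them lower in Emx1-Cre libraries at 3 months.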

How the results depend on the processing

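The counts of calls depended on the tool and on single libraries. With all 6 Emx1-Cre libraries, 4 genes were called, and 2 without a filter, 101 with DESeq2, 1002 with limma voom, 0 in the 10 libraries alone and 1 to 166 with 1 library left out. Without replicate 6 there were 166, and 96 without a filter, 524 with DESeq2, 1897 with limma voom, 646 in the 9 libraries alone and 57 to 177 with 1 further library left out; the direction of the 166 was kept in every fit that tested them. The change between ages was called in 1042 genes, and in 460 without a filter, 1827 with DESeq2, 3917 with limma voom and 306 to 3534 with 1 library left out. The causes of these differences were not tested. RLE scaling, a filter of 1 CPM in 4 libraries and sex as a covariate kept each count within 1.5 times. RLE scaling moved the median of all genes by 0.00817.

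With the replicate number within age as a block, 99 genes were called with or without replicate 6 and 1774 for the change between ages; replicates 5 and 6 have no control of the same number and carry no weight in the 10-month comparison there. Deviations from the group means correlated at 0.0365 to 0.177 over genes between libraries that share a number, and for 2 of 4 numbers the match was the best one available, a hint from the data and not from the design. The numbers were not taken as pairs.

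The fold change of Emx1 turned from -0.04 to 0.00156 with limma voom, and it ran from -0.130 to 0.0459 with 1 library left out, above 0 without Emx1-Cre replicate 1 or 2. No other named gene turned. Depth limits genes near 0 such as Slc6a5, where 3 control reads set the ratio.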
